A study of Homo sapiens with 27 samples.

Results

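The annexin and S100 genes described here were 6 annexins (ANXA1, ANXA2, ANXA5, ANXA6, ANXA7 and ANXA11) and 4 S100 genes (S100A4, S100A6, S100A10 and S100A11), of which 9, all but S100A6, were among the 18776 genes with a transcript listed in these libraries. They were selected on the values of ANXA1, which had been seen to be lower in SGC-CLK-1 than in DMSO in these same libraries, and the other genes were added by symbol as members of the same protein families. The values of the 10 genes in that contrast are therefore a description. No p-value is given for them, and where a gene or transcript passed a threshold, that is stated as a label and not as evidence. The study tested molecular identifiers built from blocks of 3 identical bases, and 1 of its experiments sequenced RNA of RM82, a human Ewing sarcoma cell line, on nanopores. All 6 libraries came from RM82 cells, of which 3 were labelled SGC-CLK-1, an inhibitor of the CLK kinases that phosphorylate splicing factors, and 3 were labelled DMSO, the solvent control. The cells were exposed for a day, and the dose was not given in the sources used here. No gene in the tables checks which cells received the inhibitor.

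Annexins bind acidic phospholipids of membranes in the presence of calcium, through a core of repeated domains. They take part in membrane repair, in vesicle traffic and in linking membranes to actin. S100 proteins are small calcium sensors with a pair of EF-hand domains, and several of them bind the N-terminal tail of a given annexin. S100A10 forms a complex with ANXA2, S100A11 binds ANXA1 and S100A6 binds ANXA11, and some S100 proteins bind more than 1 annexin.

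The sequences below are given because they show the part that the annexins share and the S100 genes lack. Each is the first in-frame match to GGNNNNGGNACNGAN in the coding sequence of the canonical transcript, with 12 bases on each side. Capitals mark the matched bases, which code for the glycine, glycine, threonine and acidic residue of a calcium-binding loop of the annexin repeat. The search ran on the coding strand only.
ANXA1: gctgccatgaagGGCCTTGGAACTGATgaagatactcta
ANXA2: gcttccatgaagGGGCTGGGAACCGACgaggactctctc
ANXA5: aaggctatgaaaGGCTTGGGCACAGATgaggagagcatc
ANXA6: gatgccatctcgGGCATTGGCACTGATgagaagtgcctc
ANXA7: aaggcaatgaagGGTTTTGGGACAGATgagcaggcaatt
ANXA11: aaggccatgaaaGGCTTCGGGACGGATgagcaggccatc

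All 6 stretches crossed an exon junction, so their genome positions (GRCh38, GENCODE release 44) include an intron. They lie at chr9:73160365-73160829 on the plus strand for ANXA1 and, on the minus strand, at chr15:60357210-60360952 for ANXA2, chr4:121684752-121686306 for ANXA5, chr5:151137295-151138689 for ANXA6, chr10:73387764-73388330 for ANXA7 and chr10:80166965-80167244 for ANXA11. ANXA6, which has a doubled core, held 4 matches. ANXA5, ANXA7 and ANXA11 held 2 each, and ANXA1 and ANXA2 held 1 each. The coding sequences of the 4 S100 genes held none. Among 7925 canonical coding sequences of 963 to 2022 bases, the range of the 6 annexins, 1.44% held the letters. A shorter form of 12 bases, GGNNNNGGNACN, had been tried first and was held by 12.9% of those sequences. The longer form was taken after the shorter one was seen to match ANXA11 outside its repeats, so the choice of letters followed from the annexins themselves.

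The N-terminal tails, to which S100 partners bind, differ between annexins. The first 45 coding bases of ANXA1 and ANXA2, the pair with the highest levels per length in the DMSO libraries, are shown with the start codon in capitals.
ANXA1: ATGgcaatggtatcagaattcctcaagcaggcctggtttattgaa
ANXA2: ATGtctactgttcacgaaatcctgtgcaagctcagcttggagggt

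These stretches lie within a single exon each, at chr9:73158536-73158580 on the plus strand and chr15:60386031-60386075 on the minus strand.

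The deposited values were counts of unique molecular identifiers (UMIs) per transcript. The total per library was 416352, 523456 and 372876 in DMSO replicates 1 to 3 and 666702, 362826 and 373004 in SGC-CLK-1 replicates 1 to 3. A single count was therefore worth 1.5 to 2.76 counts per 1000000 counts of the library (CPM), and a count of 0 allows a level of up to 4.5 to 8.27 CPM, depending on the library and for counting error only. Values for a gene are sums over its transcripts. Because alignments to several transcripts were kept, 1 molecule can be counted on more than 1 transcript, and a gene sum can exceed the number of molecules. The sum was 2.08 to 4.23 times the most counted transcript in the 5 annexins that passed the filter on low counts.

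The annexins ranged from abundant to barely detected, and the S100 genes were close to absent. Over the 6 libraries the 10 genes held 4610 counts, of which ANXA2 took 82.9% and the 4 S100 genes together took 20 counts. They made up 0.138% to 0.208% of all counts in a library. Of their 113 annotated transcripts, 79 were listed in at least 1 library. Repeated counting was uneven, with a gene sum of 4.23 times the most counted transcript in ANXA2 and 2.23 times in ANXA1. That transcript held 904 counts in ANXA2 and 103 in ANXA1, so comparisons of gene sums between genes are approximate. Levels per length were compared in the DMSO libraries as CPM per kilobase of transcript. A UMI tags a molecule whatever its length, so this scaling raises short transcripts relative to long ones. The median was 965 for ANXA2, 74.1 for ANXA1, 51.1 for ANXA5, 37.5 for ANXA6, 18.3 for ANXA7, 8.35 for S100A10 and 2.48 for ANXA11. S100A11, S100A4 and S100A6 had medians of 0. The ranges of neighbours did not overlap between ANXA2 and ANXA1, between ANXA1 and ANXA5 (lowest ANXA1 value 68.9, highest ANXA5 value 68.2), between ANXA5 and ANXA6 or between ANXA7 and S100A10. They overlapped between ANXA6 and ANXA7 and between all neighbours from S100A10 downwards, whose order is thus not set by these libraries. Without DMSO replicate 2 the median was 4.18 for S100A10, 1.24 for ANXA11 and 9.17 for S100A4, which then stood above S100A10. Without DMSO replicate 1 it was 1.26 for ANXA11, 3.41 for S100A11 and 9.17 for S100A4, and without DMSO replicate 3 it was 3.41 for S100A11. Scaled by the length of the most abundant transcript in place of each transcript's own length, ANXA6 had a median of 22.5. Without scaling by length, the DMSO medians were 1494 CPM for ANXA2, 118 for ANXA1, 72.1 for ANXA5 and 65.0 for ANXA6. They were 36.0 for ANXA7, 16.8 for ANXA11 and 5.36 for S100A10, so ANXA11 stood above S100A10. In the SGC-CLK-1 libraries the medians per kilobase were 835 for ANXA2, 59.8 for ANXA5, 29.1 for ANXA6, 26.6 for ANXA1 and 17.4 for ANXA7. There the ranges of ANXA1 (24.3 to 36.6), ANXA5 (23.8 to 104), ANXA6 (23.8 to 29.2) and ANXA7 (15.4 to 32.8) overlapped, so that the order of these 4 is not set.

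**Figure D1:**
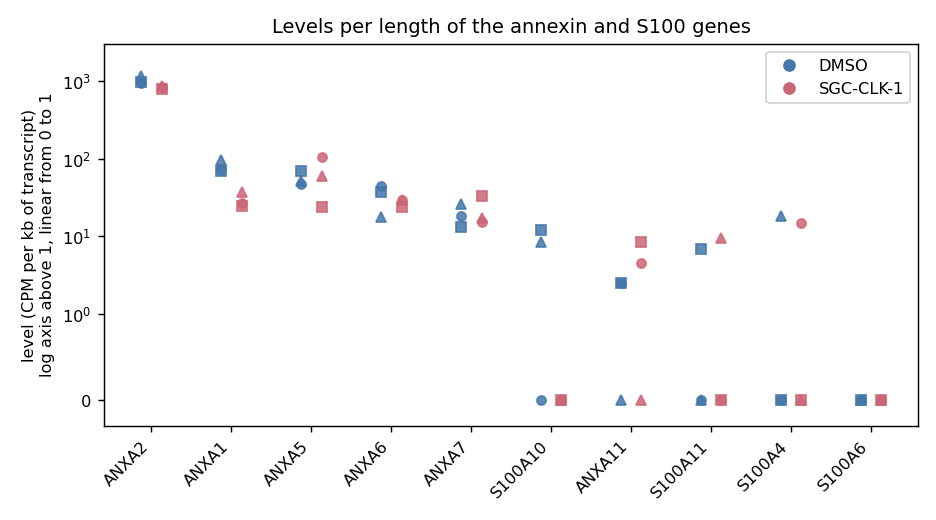
Level of each gene in CPM per kilobase of transcript (vertical axis, logarithmic above 1 and linear from 0 to 1), with 1 point per library, DMSO in blue and SGC-CLK-1 in red, and circles, squares and triangles for replicates 1 to 3. ANXA2 stands apart from every other gene, with a DMSO median of 965 against 74.1 for ANXA1, and the S100 genes have points at 0 in most libraries.

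ANXA1 (ENSG00000135046, chr9:73151865-73170393, plus strand) encodes a phospholipid-binding protein known as a mediator of glucocorticoid action and of the resolution of inflammation. Its gene sum was 118, 115 and 153 CPM in DMSO replicates 1 to 3, from 49, 60 and 57 counts. In SGC-CLK-1 replicates 1 to 3 it was 45, 38.6 and 53.6 CPM, from 30, 14 and 20 counts. Every SGC-CLK-1 library lay below every DMSO library, and the gap between the groups was wider than the spread within either. The means were 128 ± 21.3 CPM (SD, n = 3) in DMSO and 45.7 ± 7.54 CPM (SD, n = 3) in SGC-CLK-1. The fitted log2 fold change was -1.56 ± 0.30 (SE). In bulk RNA of this kind, fewer cells that express a gene and less RNA per cell cannot be told apart.

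ANXA1 was the 1 gene of the 10 that passed the adjusted threshold of 0.05 of edgeR's quasi-likelihood test, where 0.236% of the 6344 genes tested passed it and 0.126% passed it as lower in SGC-CLK-1. Because ANXA1 was chosen for this fall, nothing is read from that count. The call rested on all 6 libraries, since it was lost when any 1 of them was left out. The fold change then stayed between -1.68 and -1.40. The call was kept under the 7 other alternatives of scaling, filter, test, block and summing, with log2 fold changes from -1.57 to -1.46.

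Both transcripts that carried most of the ANXA1 counts were lower in SGC-CLK-1. ANXA1-201 (ENST00000257497, 13 exons), the canonical transcript, had 20, 29 and 25 counts in DMSO and 14, 6 and 9 in SGC-CLK-1. ANXA1-202 (ENST00000376911, 12 exons) had 20, 28 and 23 counts in DMSO and 14, 6 and 9 in SGC-CLK-1. The pair share a coding sequence of 346 codons, 95.8% of the 25-base words of ANXA1-201 occur in ANXA1-202, and their counts differed by at most 2 in any library. They are therefore not independent measurements. Their log2 fold changes were -1.43 ± 0.34 and -1.37 ± 0.34 (SE). Of the other ANXA1 transcripts, none held 10% of the gene's counts, and the classes without a defined coding sequence held 9.57% of them. Among the 11 transcripts of the 10 genes that passed the filter, these 2 passed the adjusted threshold, where 3.95% of 7840 transcripts tested did.

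ANXA2 (ENSG00000182718, chr15:60347134-60402883, minus strand), the partner of S100A10 at the plasma membrane, was the most abundant of the 10. Its gene sum was 1460, 1494 and 1751 CPM in DMSO and 1297, 1182 and 1295 CPM in SGC-CLK-1. The lowest DMSO library lay above the highest SGC-CLK-1 library, by less than the range of the DMSO libraries. Means were 1568 ± 159 and 1258 ± 65.7 CPM (SD, n = 3 each), and the log2 fold change was -0.40 ± 0.18 (SE), with -0.47 to -0.29 when single libraries were left out. ANXA2 did not pass the adjusted threshold. ANXA1 and ANXA2 were the 2 genes of the 10 whose groups did not overlap, both lower in SGC-CLK-1. Of all genes tested, 19.7% did not overlap in either direction and 9.71% did not overlap and were lower, and nothing is read from the 2 genes against that share.

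**Figure D2:**
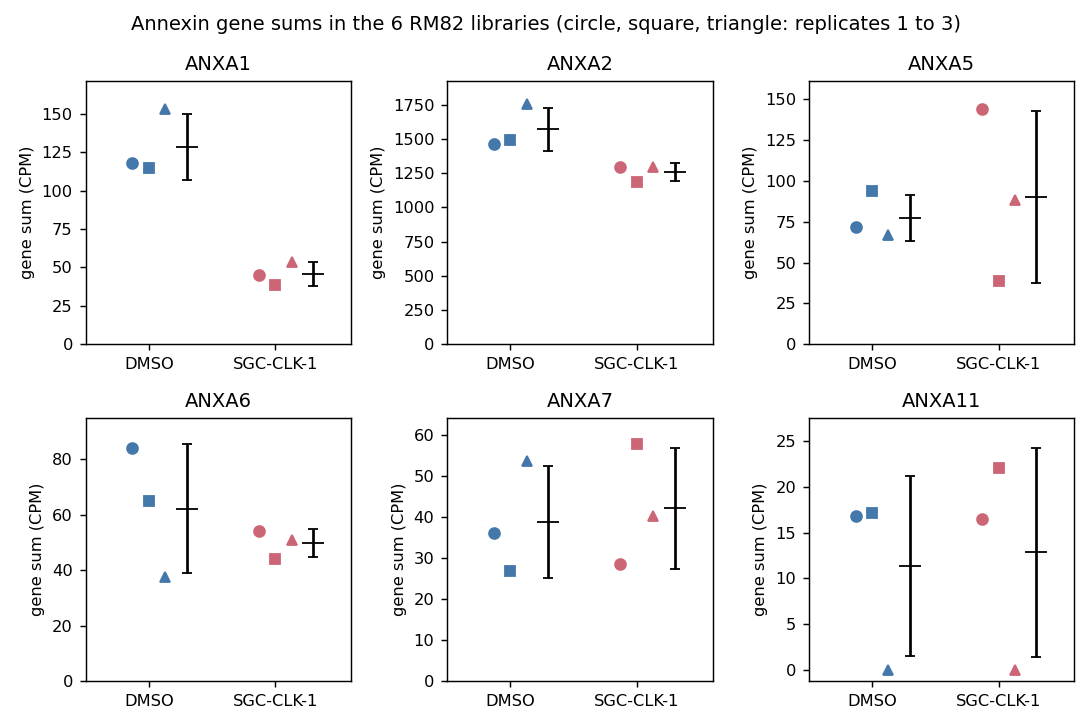
Gene sums in CPM (vertical axes, starting at or below 0 and different in each panel) of the 6 annexins in the 3 DMSO (blue) and 3 SGC-CLK-1 (red) libraries, with circles, squares and triangles for replicates 1 to 3 and the mean and SD beside them in black. The groups are apart for ANXA1 and ANXA2 and overlap for ANXA5, ANXA6, ANXA7 and ANXA11.

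The ANXA2 counts were spread over several transcripts that could hardly be told apart. ANXA2-202, ANXA2-204 and ANXA2-201 held 23.7%, 23.6% and 23.5% of the gene's counts. In DMSO replicates 1 to 3 ANXA2-202 had 146, 186 and 152 counts, and in SGC-CLK-1 replicates 1 to 3 it had 209, 98 and 113. The other 2 differed from it by at most 4 counts in a library. ANXA2-203 has the same coding sequence of 1020 bases as ANXA2-202 and ANXA2-204, yet held 16.4% and up to 61 fewer counts in a library than ANXA2-202. Its log2 fold change was -0.17 ± 0.20 (SE) and its groups overlapped, against -0.31 ± 0.19 (SE) for ANXA2-202, whose groups did not. The difference between these values was not tested.

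Most ANXA2 counts lay on transcripts annotated as protein coding, with 86.8%, 87.7% and 86.4% in DMSO and 89.6%, 89.0% and 90.5% in SGC-CLK-1. The share was higher in every SGC-CLK-1 library than in any DMSO library, and this difference was not tested. Such shares were not computed for genes other than the 10, so no background stands beside this difference. The class annotated for nonsense-mediated decay held 8.72%, 8.57% and 8.12% of the gene's counts in DMSO and 8.09%, 8.16% and 6.004% in SGC-CLK-1. Its main transcript ANXA2-228 had a log2 fold change of -0.50 ± 0.23 (SE). Of the 25-base words of ANXA2-201, 90% occur in ANXA2-228, and 1 molecule can be counted on both. The shares of the classes can therefore not be read as isoform use. The retained-intron class held 1.97%, 1.92% and 1.84% in DMSO and 1.39%, 0.932% and 1.66% in SGC-CLK-1. All 3 SGC-CLK-1 shares of retained introns lay below the DMSO shares, on 63 counts in all. The class without a defined coding sequence held 2.47%, 1.79% and 3.68% in DMSO and 0.925%, 1.87% and 1.86% in SGC-CLK-1, with groups that overlapped. ANXA2-205, the main retained-intron transcript, had a log2 fold change of -0.90 ± 0.43 (SE), and ANXA2-208, without a defined coding sequence, had -1.04 ± 0.41 (SE). None of these transcripts passed the adjusted threshold. In all, 8 of the 11 tested transcripts of the 10 genes had groups that did not overlap, beside 22.9% of all transcripts tested, and most of the 8 share sequence with one another.

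**Figure D3:**
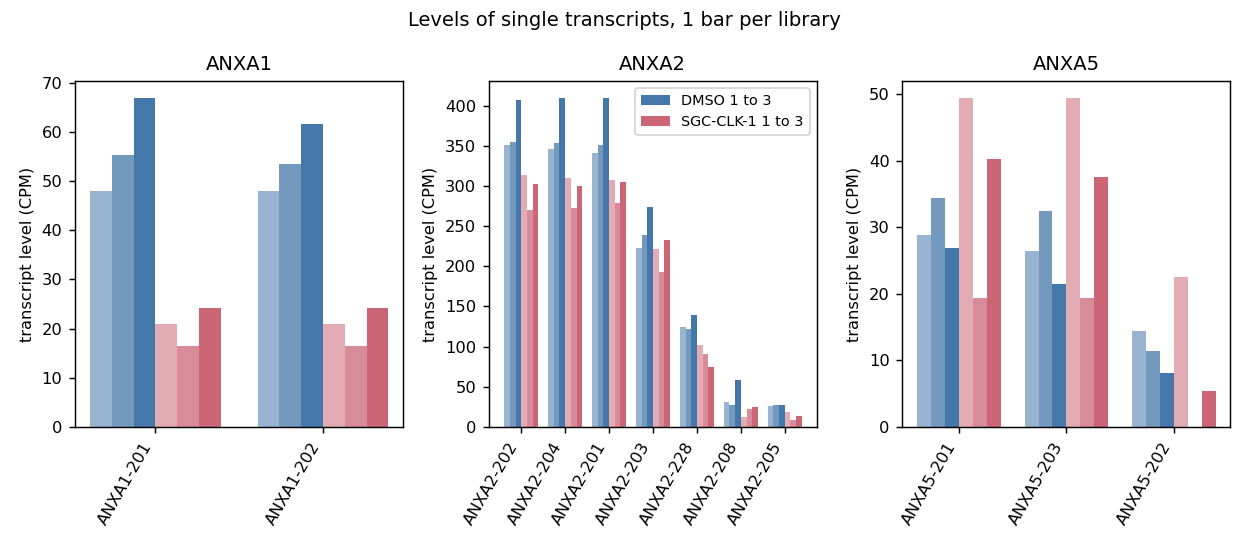
Level in CPM (vertical axes, from 0) of the transcripts of ANXA1, ANXA2 and ANXA5 that held at least 10% of the gene's counts or passed the filter, with 1 bar per library, DMSO replicates 1 to 3 in blue and SGC-CLK-1 replicates 1 to 3 in red, from light to dark. The bars of ANXA1-201 and ANXA1-202 are nearly equal within each library, as are those of ANXA2-202, ANXA2-204 and ANXA2-201 and those of ANXA5-201 and ANXA5-203.

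ANXA5 (ENSG00000164111, chr4:121667946-121696995, minus strand) binds phosphatidylserine and is used as a probe of dying cells. Its gene sum was 72.1, 93.6 and 67.1 CPM in DMSO and 144, 38.6 and 88.5 CPM in SGC-CLK-1. The SGC-CLK-1 libraries held both the highest and the lowest value, and the groups overlapped. The means were 77.6 ± 14.1 and 90.4 ± 52.7 CPM (SD, n = 3 each), and the log2 fold change was 0.19 ± 0.39 (SE). Its sign rested on SGC-CLK-1 replicate 1, without which it was -0.38. ANXA5-203, annotated for nonsense-mediated decay, had 11, 17 and 8 counts in DMSO and 33, 7 and 14 in SGC-CLK-1. The canonical ANXA5-201 had 12, 18 and 10 in DMSO and 33, 7 and 15 in SGC-CLK-1, at most 2 counts away. With 92.7% of the 25-base words of ANXA5-201 found in ANXA5-203, the 38.1% of ANXA5 counts listed under the decay class cannot be separated from reads of the coding transcript. ANXA5-202, a coding transcript with 12.96% of the counts, had 15, 0 and 2 counts in SGC-CLK-1 and 6, 6 and 3 in DMSO.

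ANXA6 and ANXA7 were measured at low counts, with groups that overlapped. ANXA6 (ENSG00000197043, chr5:151100706-151157815, minus strand), the annexin with a doubled core, had 84.1, 65.0 and 37.6 CPM in DMSO and 54.0, 44.1 and 50.9 CPM in SGC-CLK-1. The SGC-CLK-1 values lay inside the range of the DMSO values. Its log2 fold change was -0.39 ± 0.35 (SE), with -0.62 without DMSO replicate 3 and -0.15 without DMSO replicate 1 as the extremes when single libraries were left out. The counts fell mostly on ANXA6-201 with 35.7%, ANXA6-215 with 29.9%, and ANXA6-202 and ANXA6-211 with 12.99% each, none of which passed the filter. ANXA7 (ENSG00000138279, chr10:73375101-73414076, minus strand), linked to membrane fusion in secretion, had 36.0, 26.8 and 53.6 CPM in DMSO and 28.5, 57.9 and 40.2 CPM in SGC-CLK-1. The 2 groups covered nearly the same range. Its log2 fold change was 0.03 ± 0.43 (SE), with -0.26 to 0.34 when single libraries were left out. ANXA7-202 and ANXA7-201 held 48.1% and 44.2% of its counts.

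ANXA11 and the 4 S100 genes did not pass the filter on low counts, so 5 of the 10 genes have a log2 fold change here. Without that filter 9 of the 10 were fitted, all but S100A6, and ANXA1 was the 1 called. ANXA11 (ENSG00000122359, chr10:80150889-80205572, minus strand), which tethers RNA granules to lysosomes, had 7, 9 and 0 counts in DMSO and 11, 8 and 0 in SGC-CLK-1. Replicate 3 was at 0 in both groups, and the others lay between 16.5 and 22.1 CPM. ANXA11-203, ANXA11-202 and ANXA11-205, which share a coding sequence of 1518 bases, held 31.4%, 28.6% and 28.6% of its 35 counts.

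The S100 genes lie close together on chromosome 1. S100A10 (chr1:151982915-151993859), the ligand of ANXA2, had 0, 4 and 2 counts in DMSO and 0 in all 3 SGC-CLK-1 libraries. Its 2 transcripts carried equal counts in every library, 3 on each over the 6 libraries. S100A11 (chr1:152032506-152047907), the partner of ANXA1, had 2 counts in DMSO replicate 2, 2 in SGC-CLK-1 replicate 3 and 0 elsewhere. S100A4 (chr1:153543613-153550136), known as a metastasis-associated protein, had 4 counts in DMSO replicate 3, 6 in SGC-CLK-1 replicate 1 and 0 elsewhere. S100A6 (chr1:153534599-153536244), also named calcyclin, had no count in any library. At this depth levels under 4.5 to 8.27 CPM cannot be told from 0.

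The S100 transcripts are short, so other short genes were looked up after the S100 counts had been seen. The canonical S100 transcripts are 434 to 671 bases long. RPL41, a ribosomal protein gene with a canonical transcript of 676 bases, held 3773 counts over the 6 libraries. RPS27, also ribosomal, held 833 at 352 bases, RPLP1, a ribosomal stalk protein gene, held 710 at 1174 bases, and TMSB10, a thymosin that binds actin monomers, held 609 at 461 bases. These are all abundantly expressed genes, and RPL41 and RPLP1 have longer canonical transcripts than the S100 genes. Of 658 protein-coding genes with a canonical transcript of 434 to 671 bases, 48.6% had a count and 14.4% had at least 100 counts. Of 19180 with a longer one, 75.6% had a count and 24.4% had at least 100. The part of transcript length in the low S100 counts was not tested.

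The wider annexin and S100 families were also sparse. Of 24 further members, 7 had counts, none passed the filter, and 17 were at 0, among them S100A8, S100A9, S100A16, S100B and S100P. ANXA13, the most counted, had 6, 19 and 6 counts in DMSO and 14, 9 and 9 in SGC-CLK-1. ANXA4 followed with 3, 11 and 7 counts in DMSO and 2, 11 and 11 in SGC-CLK-1. The groups overlapped for both.

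The other 3 lists cover genes that work with annexins and S100 proteins, namely binding partners and membrane repair genes, calmodulins and other EF-hand proteins, and genes of the actin cortex. By edgeR's gene fit 0 of their 39 tested genes passed the adjusted threshold, and 7 had an unadjusted p under 0.05, all lower in SGC-CLK-1. DESeq2 called 3 (CACYBP, CALM2 and CFL1), also lower, beside 1.69% of all genes in either direction (66 lower and 41 higher). Over all 6344 genes tested the median log2 fold change was -0.0012, and 13.9% had an unadjusted p under 0.05 in either direction. The share that was lower alone was not computed, and the lists were chosen with earlier results of these data known. P-values here measure the spread between libraries, which may be technical, since the labels do not tie the 3 libraries of a group to separate cultures. The study's reporting summary states in general that experiments were repeated independently.

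Among partners and membrane repair genes, 12 of 27 were tested, 6 with a lower and 6 with a higher value in SGC-CLK-1, and their median log2 fold change was 0.01. CAV1, a caveolar coat protein and the most counted, had 2632, 3943 and 3454 CPM in DMSO and 2632, 3258 and 3914 CPM in SGC-CLK-1. Its groups overlapped and its log2 fold change was -0.11 ± 0.20 (SE). CACYBP, which encodes the calcyclin-binding protein and is named for its binding of S100A6, had 507, 558 and 536 CPM in DMSO and 288, 289 and 373 CPM in SGC-CLK-1. All SGC-CLK-1 values lay below the DMSO values, while S100A6 itself had no count. The gene sum had a log2 fold change of -0.83 ± 0.20 (SE) and an adjusted p of 0.0748 by edgeR. Its transcript CACYBP-201 (ENST00000367679) was the 1 of 14 tested transcripts of this list that passed, beside 3.95% of all transcripts, with 119, 167 and 109 counts in DMSO and 113, 58 and 77 in SGC-CLK-1. It fell by 0.74 ± 0.21 (SE) on the log2 scale (adjusted p 0.0348, edgeR). The adjusted p of CACYBP-201 lay between 0.019 and 0.156 under the other scalings, filters, tests and the block. It was 0.0437 without DMSO replicate 3 and 0.0707 to 0.236 without any other single library.

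Among the EF-hand proteins, 11 of 18 were tested, 6 with a lower and 5 with a higher value, and the median log2 fold change was -0.25. Of their 20 tested transcripts 0 passed, beside 3.95% of all transcripts tested. CALM2, a calmodulin gene, had 1972, 1603 and 1977 CPM in DMSO and 1437, 1287 and 904 CPM in SGC-CLK-1. The groups did not overlap, and the log2 fold change was -0.69 ± 0.20 (SE, adjusted p 0.134 by edgeR). CHP1, a calcineurin-like cofactor of sodium-proton exchangers, had a log2 fold change of -0.26 ± 0.20 (SE, adjusted p 0.617 by edgeR).

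Among the actin genes, 16 of 18 were tested, 12 with a lower and 4 with a higher value, and the median log2 fold change was -0.17. Of their 65 tested transcripts 0 passed, beside 3.95% of all transcripts tested. ACTB, cytoplasmic beta-actin, had 3973, 2921 and 5393 CPM in DMSO and 3936, 5080 and 4126 CPM in SGC-CLK-1. Its groups overlapped, with a log2 fold change of 0.01 ± 0.22 (SE). TPM3, a tropomyosin, had -0.16 ± 0.16 (SE). CFL1, the actin-severing cofilin, was singled out after its values were seen, with 656, 550 and 660 CPM in DMSO and 444, 334 and 330 CPM in SGC-CLK-1. Its log2 fold change was -0.82 ± 0.20 (SE, adjusted p 0.089 by edgeR).

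**Figure D4:**
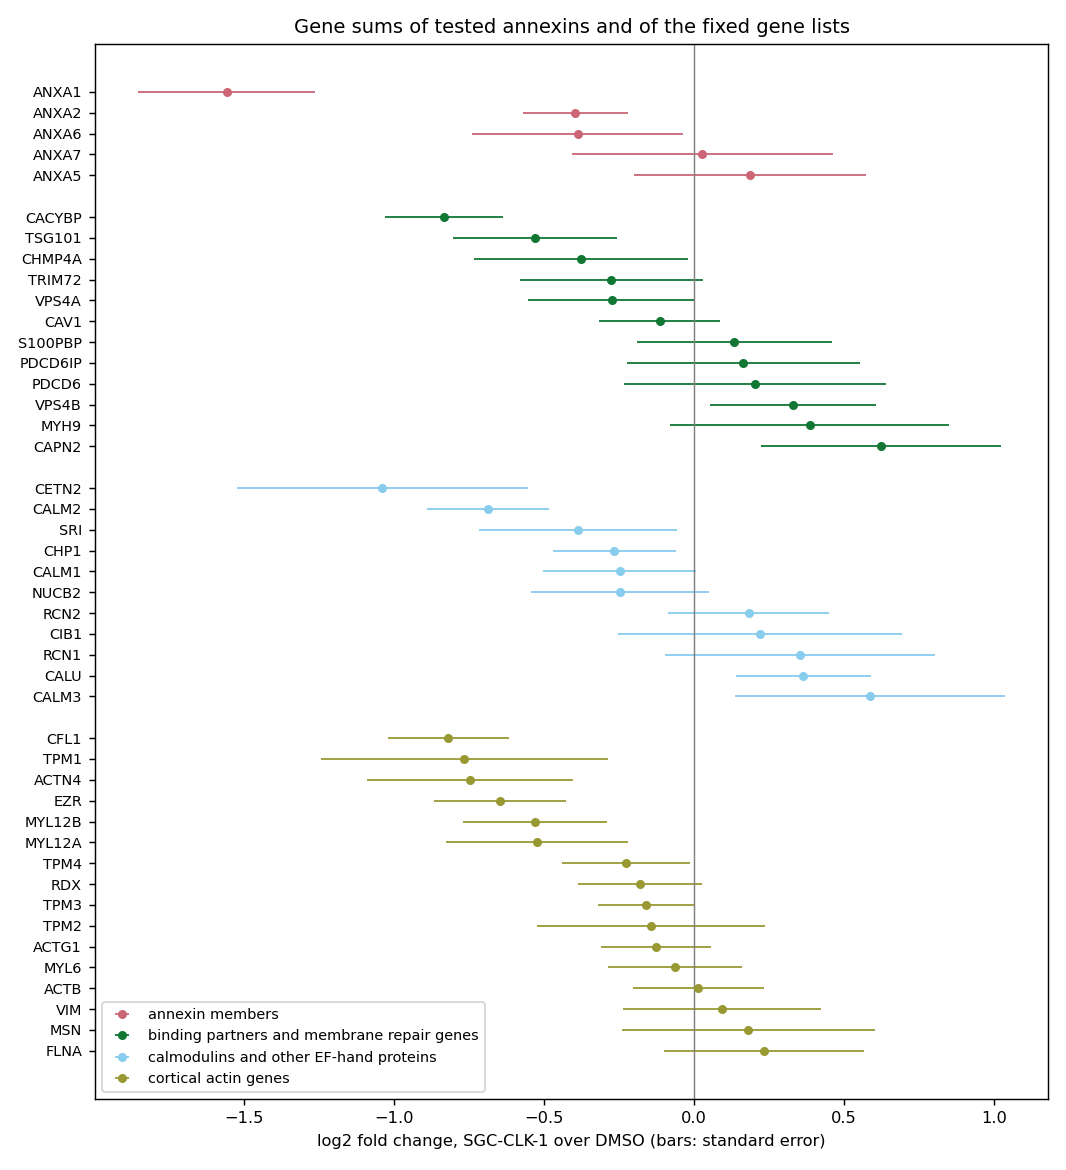
Log2 fold change of gene sums, SGC-CLK-1 over DMSO (horizontal axis), with its standard error as a bar, for the 5 annexins that passed the filter and the tested genes of the 3 lists, each group in its own colour. ANXA1 at -1.56 lies furthest to the left, and 0 of the 39 genes of the 3 lists passed the adjusted threshold of edgeR.

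The genes whose profile over the 6 libraries was most like that of ANXA1 among 6344 genes were HEXA (a lysosomal hexosaminidase, Pearson r 0.991), STIP1 (a co-chaperone, 0.991), NEMF (a ribosome quality control factor, 0.989), CCDC88A (an actin-binding protein, 0.987) and MRPL3 (a mitochondrial ribosomal protein, 0.986). The correlations were taken on log2 CPM over 6 libraries that form 2 groups, so a shared difference between the groups can set them. STIP1 had 937, 940 and 974 CPM in DMSO and 576, 491 and 593 CPM in SGC-CLK-1, and CCDC88A had 785, 871 and 928 CPM in DMSO and 480, 469 and 499 CPM in SGC-CLK-1.

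Markers of the labelled cell line had counts in all 6 libraries, though not each marker in each library. Of 13 Ewing sarcoma markers, 11 had counts, CCND1 was the most abundant, and NKX2-2 and FLI1 were at 0. ERG had 91.3, 99.3 and 102 CPM in DMSO and 132, 66.2 and 182 CPM in SGC-CLK-1, with groups that overlapped. PAX7 was at 0 in DMSO replicate 1 and LIPI in DMSO replicate 3. The summed level of the 13 markers was 1900, 1761 and 2148 CPM in DMSO and 1996, 2015 and 1952 CPM in SGC-CLK-1. Of the 7 tested, 0 passed the adjusted threshold and 2 had an unadjusted p under 0.05, and 1 was lower and 2 were higher in SGC-CLK-1 without overlap of the groups, beside 13.9% of all genes tested with an unadjusted p under 0.05, 9.71% lower without overlap and 10% higher without overlap. CCND1 had 677, 502 and 684 CPM in DMSO and 452, 499 and 488 CPM in SGC-CLK-1. EWSR1 had 187, 166 and 113 CPM in DMSO and 278, 207 and 233 CPM in SGC-CLK-1, and KDSR had 216, 313 and 311 CPM in DMSO and 353, 430 and 346 CPM in SGC-CLK-1. Of 8 plasma cell markers 4 had counts, with CD38 the most abundant, SDC1, TNFRSF17, MZB1 and IRF4 at 0, and sums of 103, 93.6 and 77.8 CPM in DMSO and 84.0, 85.4 and 88.5 CPM in SGC-CLK-1. Of 8 T cell markers 4 had counts, with PTPRC the most abundant, CD3D, CD3E, CD2 and CD5 at 0, and sums of 33.6, 22.9 and 26.8 CPM in DMSO and 13.5, 27.6 and 37.5 CPM in SGC-CLK-1. CD3G in that list had 6, 8 and 6 counts in DMSO and 2, 1 and 1 in SGC-CLK-1, lower without overlap as ANXA1 was. Of all genes tested, a set that does not hold CD3G, 9.71% were lower without overlap. PTPRC had 8, 3 and 4 counts in DMSO and 7, 8 and 12 in SGC-CLK-1, with groups that overlapped in CPM. No T cell marker passed the filter on low counts. Of 9 fibroblast and macrophage markers 7 had counts, with DCN the most abundant, CD68 and TYROBP at 0, and sums of 38.4, 76.4 and 77.8 CPM in DMSO and 75, 71.7 and 96.5 CPM in SGC-CLK-1. The summed levels of the groups overlapped for all 4 lists. CCND1, ERG, EWSR1, KDSR and CD3G were singled out after their values were seen, and the part of other cells in the annexin values was not tested.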

How the data were processed

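RNA of 6 RM82 libraries, 3 labelled SGC-CLK-1 and 3 labelled DMSO, was analysed. The authors called bases, corrected or removed homotrimer UMIs, mapped reads to human transcripts with minimap2 (2.22 in the submitters' processing notes) keeping secondary alignments, and deposited UMI counts per transcript without normalization. A transcript not listed by a library was given 0. Of 93530 transcript identifiers, 86362 were matched without version to GENCODE release 44 and summed over 18776 genes. The other 7168 were left out of gene sums, and matched identifiers held 92.5% to 93.4% of counts.

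Genes and transcripts were fitted with edgeR 4.0.16 in R 4.3.3 (filterByExpr, minimum count 10, minimum total count 15, TMM, quasi-likelihood test), and p-values were adjusted by Benjamini-Hochberg over all features, with a threshold of 0.05. CPM values are counts per 1000000 counts of the library, without TMM. For genes and transcripts that passed the filter, overlap of the groups was judged on CPM scaled by TMM. The common biological coefficient of variation was 0.244 for genes and 0.169 for transcripts. Fits were tested on simulated data: of 200 genes changed by a fold of 4 among 6344, edgeR recovered 84% and 5.62% of its calls were wrong. Smaller changes, such as that of ANXA1, were not simulated, so the recovered share does not apply to them. DESeq2 1.42.0, other scalings, filters, the replicate number as a block, leaving out each library and the most abundant transcript were alternatives. Counts of library pairs within a group differed by more than sampling noise (chi-square per degree of freedom 1.23 to 2.26).

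The members and gene lists were chosen with earlier results of these data known. Named were the 10 members, their transcripts with at least 10% of the gene's counts or past the filter, list genes past the threshold or with such a transcript, the 2 most counted of each of the 4 pathway lists (other annexin and S100 genes, partners, EF-hand and actin genes, not the marker lists), and the 5 genes most correlated with ANXA1. Other libraries of the series were not analysed here.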

Additional observations from a re-analysis of the deposited data

How the results depend on the processing

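Of 15 genes called (8 lower, 7 higher in SGC-CLK-1), the count was 28 (8 lower, 20 higher) with library size scaling only, which moved the median log2 fold change of all genes to 0.0755, 169 without a filter, 64 with at least 10 counts in every library, 107 with DESeq2 (66 lower, 41 higher), 147 with the most abundant transcript of each gene, and 1 to 21 without single libraries. Of 310 transcripts called (165 lower, 145 higher), it was 162 without a filter, 173 with at least 10 counts in every library, 113 with DESeq2 (73 lower, 40 higher), and 81 to 363 without single libraries, with 295 (130 lower, 165 higher) under library size scaling only. Of the fixed lists 0 genes were called, and 2 without a filter (CACYBP and CFL1), 3 with DESeq2 and 2 with the most abundant transcript. The causes were not tested.

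With the replicate number as a block, 36 genes and 427 transcripts were called. Same-numbered libraries of the groups correlated at 0.0639, 0.0243 and 0.0313 in their deviations from the group means, all under 0.1. SGC-CLK-1 replicates 1 and 2 correlated best with their own number and replicate 3 with DMSO replicate 2 (0.0358). Correlations this low do not decide whether same-numbered libraries belong together, and the main fit treated them as sharing only a number.

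Low counts limit these genes: ANXA1 rested on 230 counts that partly repeat the same molecules, and 5 of the 10 genes did not pass the filter. The way molecules were deduplicated for the deposited counts was not given for each file.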
